A study of Mus musculus with 8 samples.

Results

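The 46 genes described here encode the machinery of mitosis: the kinases and cyclins that start it, the checkpoint, the kinetochore, the chromosomal passenger complex, the spindle motors, the midzone and cytokinesis proteins, and the condensin complex with *Top2a* and *Mki67*. They were taken by symbol from the deposited gene table, which held 46 of the 46 among 54532 genes, and all 46 were among the 13560 genes with enough counts to test. RNA-Seq had been done on bone marrow LSK cells (lineage-negative, c-Kit-positive, Sca-1-positive cells, which include the hematopoietic stem and progenitor cells) of *Zeb1*-/- mice on the C57BL/6 background, 8 to 12 weeks old, collected on day 14 after pIpC treatment had ended. The cells had been sorted into an EpCAM+ fraction (4 libraries) and an EpCAM- fraction (4 libraries), and the question put to the data was how the transcriptomes of these fractions differ. In both fractions *Zeb1* had been deleted by Mx1-Cre, a recombinase under an interferon-responsive promoter that pIpC switches on and that also acts outside the blood system. No libraries of mice with intact *Zeb1* were compared, so a difference here is between fractions of the same genotype. An effect of the deletion cannot be read from it.

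Mitosis is driven by cyclin-dependent kinase 1 bound to A- and B-type cyclins, with Aurora and Polo-like kinases acting on centrosomes, kinetochores and the cleavage furrow. Most genes of this machinery are transcribed late in the cell cycle, and their promoters commonly carry a cell cycle genes homology region (CHR, TTTGAA) bound by DREAM and MuvB complexes and CCAAT boxes bound by NF-Y. Because resting stem cells hold few of these transcripts and cycling progenitors many, their level in a sorted marrow population is widely read as a sign of how many cells are dividing.

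The promoters of 39 of the 46 genes could be matched by symbol in the RefSeq promoter table (build GRCm38.p6, 250 bases before to 50 after the start). *Ccna2*, *Aurkb*, *Incenp*, *Spc24*, *Tpx2*, *Kif20a* and *Smc4* had no match. Of the 39, 30 (76.9%) held TTTGAA on either strand within these 300 bases, against 20.2% of the 27025 genes in the table. CCAAT was found in 28 (71.8%) against 41.1%, and the variant TTCGAA, which reads the same on both strands, in 3 (7.69%) against 1.8%. E-boxes, the CANNTG family that holds the ZEB1-type site CACCTG, were found in 24 (61.5%) against 75%, and CACCTG itself in 4 (10.3%) against 22.6%. These are matches of letters and not measured binding.

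The 150 bases before the start are shown for 3 genes that were lower in EpCAM+ cells (*Cdk1*, *Plk1*, *Aurka*) and for 3 that did not pass the test (*Mki67*, *Top2a*, *Prc1*), since the same letters occurred in both sets. Capitals mark TTTGAA and its reverse complement TTCAAA, the variant TTCGAA, and CCAAT with its reverse complement ATTGG. The positions are Cdk1 chr10:69352913-69353062 (minus strand), Plk1 chr7:122159285-122159434 (plus), Aurka chr2:172370571-172370720 (minus), Mki67 chr7:135716380-135716529 (minus), Top2a chr11:99024190-99024339 (minus) and Prc1 chr7:80294326-80294475 (plus, the later of 2 starts).
Cdk1: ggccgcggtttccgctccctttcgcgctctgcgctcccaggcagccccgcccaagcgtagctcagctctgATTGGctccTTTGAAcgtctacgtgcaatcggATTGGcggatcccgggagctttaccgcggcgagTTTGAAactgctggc
Plk1: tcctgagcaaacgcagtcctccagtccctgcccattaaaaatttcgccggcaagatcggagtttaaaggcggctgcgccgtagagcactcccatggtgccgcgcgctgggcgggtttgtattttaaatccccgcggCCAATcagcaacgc
Aurka: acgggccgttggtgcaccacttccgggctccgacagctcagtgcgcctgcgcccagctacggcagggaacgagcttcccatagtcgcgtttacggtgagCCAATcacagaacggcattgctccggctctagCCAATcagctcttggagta
Mki67: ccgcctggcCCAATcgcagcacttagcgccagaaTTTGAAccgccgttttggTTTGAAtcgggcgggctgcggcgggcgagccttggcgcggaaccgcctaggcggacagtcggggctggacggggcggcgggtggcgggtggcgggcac
Top2a: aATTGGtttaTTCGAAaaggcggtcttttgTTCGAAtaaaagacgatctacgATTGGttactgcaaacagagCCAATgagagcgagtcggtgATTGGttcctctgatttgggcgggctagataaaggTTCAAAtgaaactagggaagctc
Prc1: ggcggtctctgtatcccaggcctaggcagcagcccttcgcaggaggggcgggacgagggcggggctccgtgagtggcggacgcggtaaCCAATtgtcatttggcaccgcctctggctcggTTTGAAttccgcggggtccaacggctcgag

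In *Cdk1*, TTTGAA lay 71 and 15 bases before the start, and in *Mki67* 116 and 98 bases before it. In *Plk1* and *Aurka* the match lay 30 and 32 bases after the start, outside the letters shown. Among the 30 genes with TTTGAA in the window, 13 were lower in EpCAM+ cells with a median log2 fold change of -0.21. Among the 9 without it, which include *Bub1* with the variant TTCGAA, 5 were lower with a median of -0.27. Of the 7 genes with no match in the promoter table, 3 were lower with a median of -0.27. Over all tested genes 20.8% were lower, by the test described below.

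Transcripts of the mitotic machinery were lower in EpCAM+ cells for 21 of the 46 genes (45.7%), and for none were they higher. Over all tested genes 20.8% were lower and 21.8% higher, where a call means an adjusted p under 0.05 in edgeR's quasi-likelihood test, adjusted after Benjamini and Hochberg over the 13560 genes, and every adjusted p below is from it. The differences were small: the median log2 fold change (EpCAM+ minus EpCAM-) of the 46 was -0.21, against 0.02 for all tested genes, and the single genes ranged from -0.57 (*Ccna2*) to 0.18 (*Kif23*). The sign was negative for 40 genes and positive for 6. In 19 genes the 4 EpCAM+ libraries all lay below the 4 EpCAM- libraries, which held for 20.0% of all tested genes. In counts from a population of sorted cells, fewer dividing cells and less of a transcript per cell cannot be told apart. By flow cytometry, the paper reported no change of cell cycle status with EpCAM expression in *Zeb1*-/- HSCs. Those stem cells are a part of the LSK cells sequenced here.

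**Figure D1:**
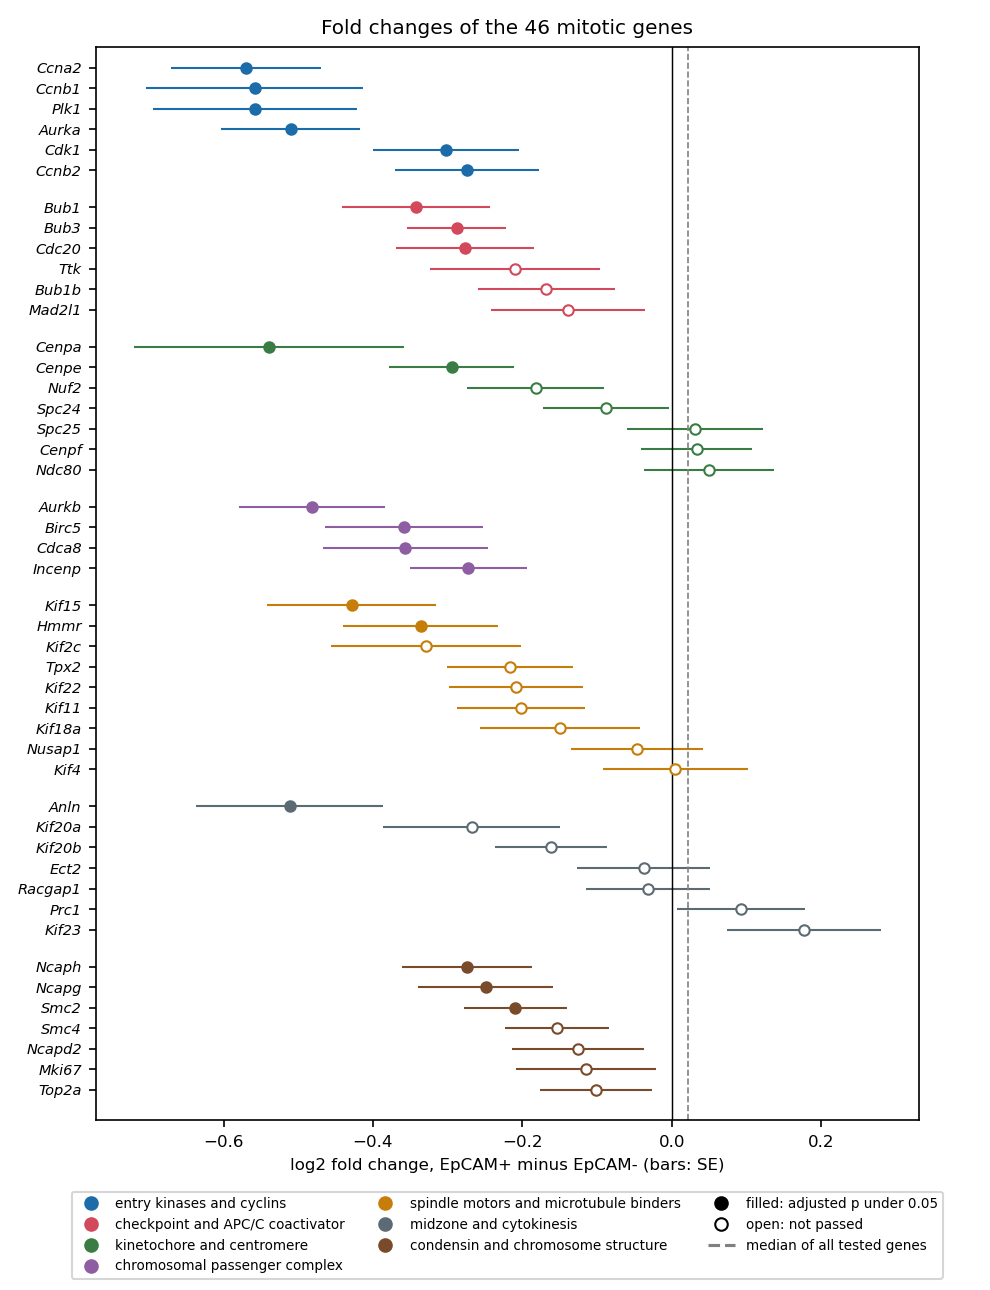
Log2 fold change of each of the 46 genes (EpCAM+ minus EpCAM-, n = 4 libraries per fraction), grouped by role, with bars of 1 SE; filled points passed the adjusted p threshold of 0.05 and the dashed line is the median of all tested genes (0.02). All 6 entry kinases and cyclins and all 4 passenger complex genes are filled and left of 0, while the open points of the kinetochore and midzone groups gather near 0.

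The calls leaned on 2 libraries and on the scaling. EpCAM+ 3 was the lowest library of its fraction for 37 of the 46 genes and EpCAM- 4 the highest of its fraction for 37. Without EpCAM+ 3 there were 10 genes lower (21.7%, against 16.5% of all genes), without EpCAM- 4 there were 11 (23.9%, against 17.5%), and with both left out, a check chosen after seeing the data, 5 (10.9%, against 13.2%): *Ccna2*, *Aurka*, *Plk1*, *Aurkb* and *Anln*. Scaling by upper quartile, which moved the median of all genes to 0.11 and the split over all genes to 15.4% lower and 26.9% higher, left 8 (17.4%), and scaling by library totals 9 (19.6%, against 15.2%). Relative to the median of all genes the 46 genes stood at -0.23 under TMM, upper-quartile and total-count scaling alike. A change of scaling moves all genes by nearly the same amount, so this value could hardly differ and says nothing on stability. With EpCAM+ 3 and EpCAM- 4 left out it was -0.16. The fit behind the 21 calls does not use the replicate numbers. With the replicate block, which compares libraries of the same number, 28 genes were lower against 24.7% of all genes. With the block and upper-quartile scaling together, a check chosen after seeing the data, 19 were lower (41.3%, against 18.9%). In that fit *Kif23* was higher, against 30.9% of all genes. Under every one of the 8 fits that left out 1 library, 10 of the 21 were called: *Ccna2*, *Ccnb1*, *Aurka*, *Plk1*, *Bub1*, *Bub3*, *Cenpe*, *Aurkb*, *Kif15* and *Anln*. The share of all tested genes called in all 8 fits is not given here, so this count has no background beside it.

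**Figure D2:**
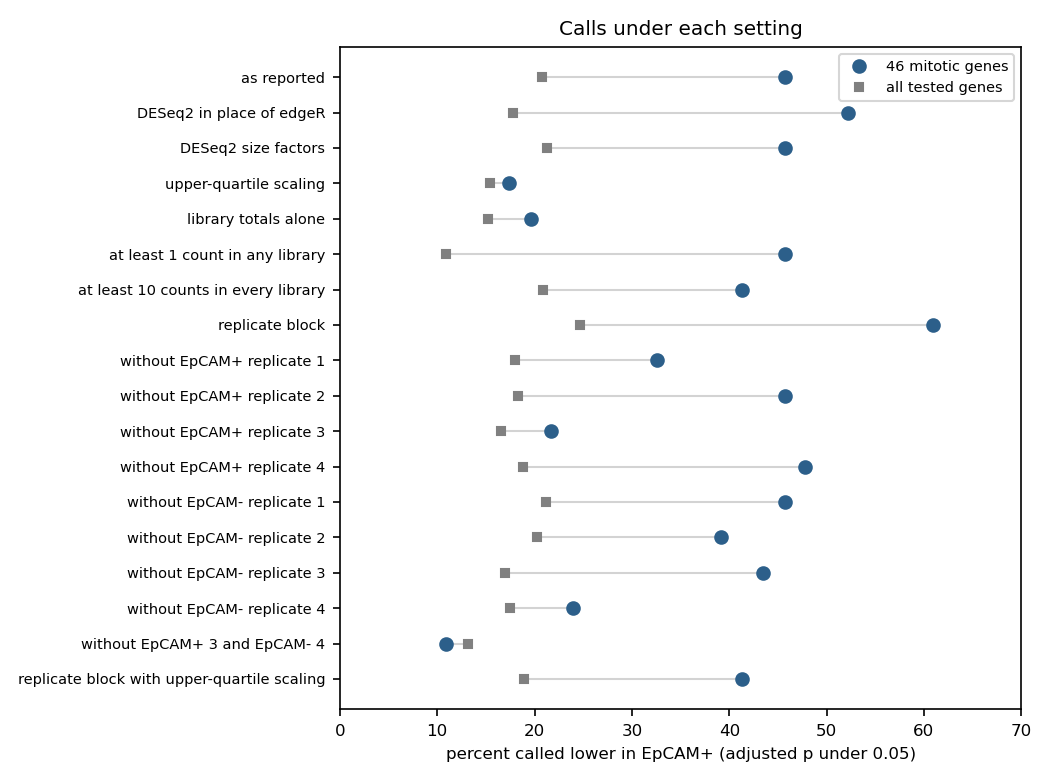
Percent of the 46 genes (circles) and of all tested genes (squares) called lower in EpCAM+ cells under each setting. The circles range from 10.9% with EpCAM+ 3 and EpCAM- 4 left out to 60.9% with the replicate block, and lie within a few points of the squares for upper-quartile scaling, library totals and the fits without EpCAM+ 3 or EpCAM- 4.

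Total counts were 15225714 to 17073546 in EpCAM+ and 14114491 to 15929923 in EpCAM- libraries, a difference with p = 0.114 in a two-sided exact permutation test. The lowest count of any member in any library was 428. Counting error was not set against the spread between libraries for single members. The fractions differed in how many genes had at least 1 count, 19992 to 20310 in EpCAM+ and 18286 to 18746 in EpCAM- libraries, and the TMM factors were 0.9999 to 1.055 and 0.9486 to 1.007. The part of this difference in the calls was not tested. *Epcam*, the gene of the sorted antigen, was at 187 ± 32.7 CPM (read counts scaled to the TMM-adjusted library size; mean ± SD, n = 4) in EpCAM+ and 3.86 ± 3.61 CPM in EpCAM- cells. *Zeb1* counts were 19.6 ± 3.76 and 11.9 ± 2.14 CPM; a count over the whole gene does not separate the deleted exons from the rest and so does not check the deletion.

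The kinases and cyclins of mitotic entry moved together: 6 of 6 were lower in EpCAM+ cells, with a median log2 fold change of -0.53. *Ccna2*, the A-type cyclin of S phase and early mitosis, had 199, 220, 184 and 217 CPM in EpCAM+ 1 to 4 and 282, 286, 285 and 364 CPM in EpCAM- 1 to 4. The fractions did not overlap, and EpCAM- 4 stood alone at the top. The log2 fold change was -0.57 ± 0.10 (SE) with an adjusted p of 0.0016, the largest change among the 46. *Ccnb1*, cyclin B1, the main partner of Cdk1 at mitotic entry, had 189, 239, 177 and 261 CPM against 294, 308, 278 and 395 CPM. Again no EpCAM+ library reached the lowest EpCAM- library (log2 fold change -0.56 ± 0.15, adjusted p = 0.011). *Ccnb2*, the second B-type cyclin, fell by less, from 313 ± 33.5 to 259 ± 23.4 CPM (-0.27, adjusted p = 0.041), and its fractions overlapped.

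*Cdk1*, the kinase that these cyclins activate, had 246, 304, 247 and 283 CPM in EpCAM+ and 297, 362, 313 and 360 CPM in EpCAM- cells. EpCAM+ 2 lay above EpCAM- 1, so the fractions overlapped, and the fold change was -0.30 ± 0.10 with an adjusted p of 0.030. *Plk1*, the Polo-like kinase of centrosome maturation and spindle assembly, had 105, 126, 92.8 and 125 CPM against 151, 152, 147 and 210 CPM. The fractions lay apart, EpCAM- 4 well above the other EpCAM- libraries (-0.56 ± 0.14, adjusted p = 0.0086). *Aurka*, the Aurora kinase of spindle poles, had 109, 125, 99.6 and 115 CPM against 153, 166, 142 and 178 CPM. It too had fractions that did not overlap (-0.51 ± 0.09, adjusted p = 0.0020). *Cdk1* and *Ccnb2* were not called under upper-quartile scaling, where their log2 fold changes were -0.22 and -0.19, and each was called in 4 of the 8 fits without 1 library.

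**Figure D3:**
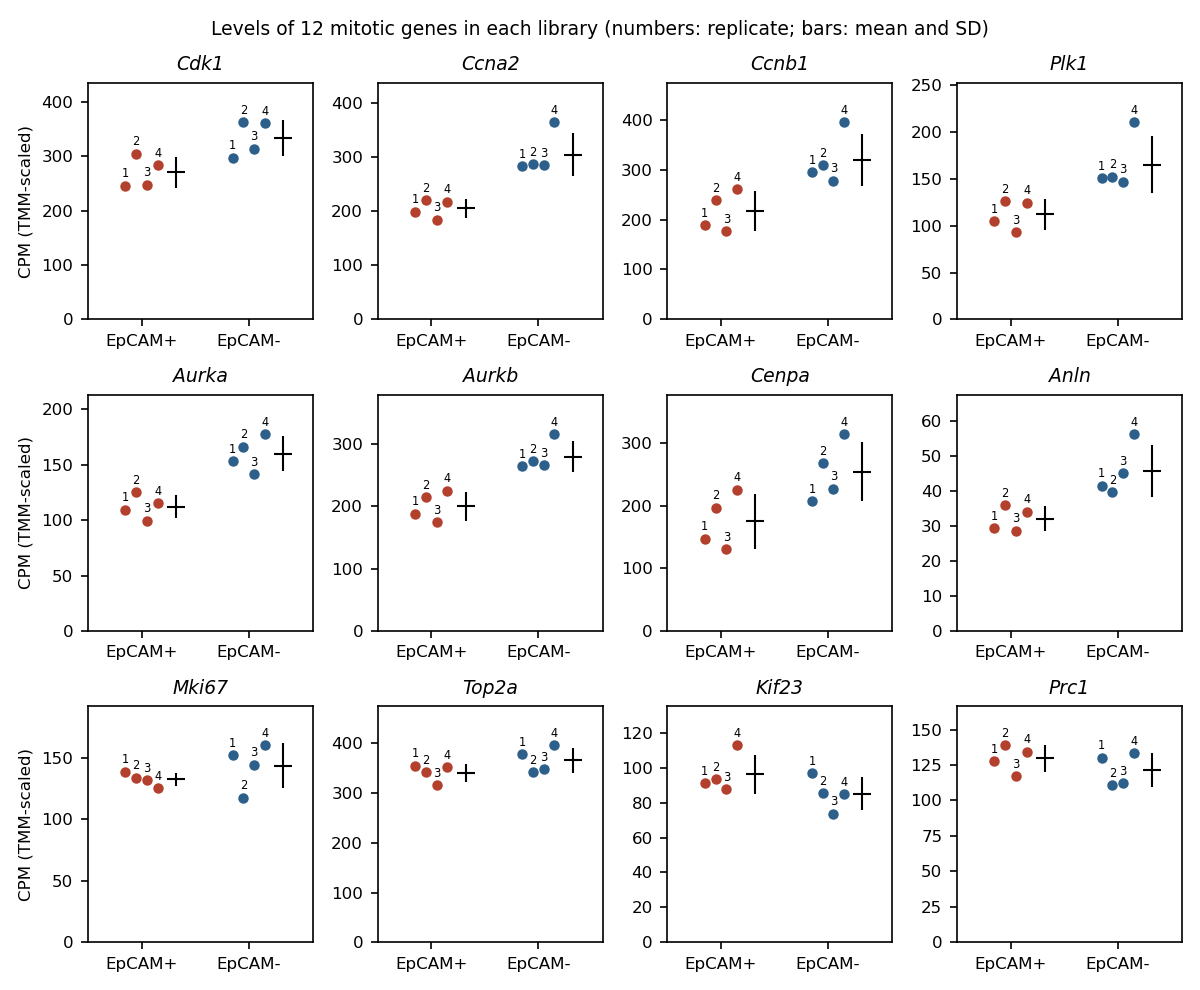
CPM of 12 of the genes in each library (points, numbered by replicate) with the mean and SD of each fraction (n = 4) beside them; axes start at 0. For Ccna2, Ccnb1, Plk1, Aurka, Aurkb and Anln the red EpCAM+ points all lie below the blue EpCAM- points, while for Mki67, Top2a, Kif23 and Prc1 the fractions overlap.

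All 4 genes of the chromosomal passenger complex, which corrects kinetochore attachments and then moves to the midzone, were lower as well, and all 4 had fractions that lay apart. *Aurkb*, its kinase, had 188, 214, 174 and 224 CPM in EpCAM+ and 264, 272, 265 and 316 CPM in EpCAM- cells. The highest EpCAM+ library stayed below the lowest EpCAM- library, and EpCAM- 4 was again the highest (-0.48 ± 0.10, adjusted p = 0.0033). *Birc5* (survivin) was at 266 ± 31.3 against 341 ± 37.4 CPM (-0.36, adjusted p = 0.020). *Cdca8* (borealin) was at 220 ± 26.9 against 281 ± 34.3 CPM (-0.36, adjusted p = 0.025). *Incenp*, the scaffold, was at 112 ± 6.66 against 135 ± 11.1 CPM (-0.27, adjusted p = 0.018). Of the 4, *Aurkb* alone was called under upper-quartile scaling.

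Of the 6 genes of the spindle assembly checkpoint and the activator of the anaphase-promoting complex, 3 were lower. *Bub3*, which brings checkpoint kinases to the kinetochore, had 368, 392, 352 and 374 CPM in EpCAM+ and 447, 460, 435 and 472 CPM in EpCAM- cells. These were tight groups with a clear gap between them (-0.29 ± 0.07, adjusted p = 0.0064). *Bub3* shares its whole span with *Fgfr2* on the opposite strand, and the strand setting of the counting is not given in the sources used here. *Bub1*, a checkpoint kinase, had 56.5, 66.7, 49.9 and 63.7 CPM against 72.7, 73.4, 70.8 and 83.3 CPM. Its fractions did not overlap either (-0.34 ± 0.10, adjusted p = 0.019). *Cdc20*, which the checkpoint holds in check, was at 240 ± 21.3 against 290 ± 29.3 CPM (-0.28, adjusted p = 0.034). *Bub1b*, *Mad2l1* and *Ttk*, the other checkpoint genes, had log2 fold changes of -0.17, -0.14 and -0.21 that did not pass. Under upper-quartile scaling *Bub3* alone of the 6 was called (adjusted p = 0.036), with 0.062 for *Bub1* and 0.12 for *Cdc20*.

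The kinetochore group was split. *Cenpa*, the histone variant of centromeres, had 147, 196, 130 and 225 CPM in EpCAM+ and 207, 268, 227 and 314 CPM in EpCAM- cells. EpCAM+ 4 lay above EpCAM- 1, and the spread within each fraction was wide (-0.54 ± 0.18, adjusted p = 0.035). *Cenpe*, the kinetochore motor that brings chromosomes to the spindle equator, had 97.7, 102, 85.4 and 105 CPM against 121, 116, 110 and 131 CPM. Here the fractions lay apart (-0.29 ± 0.08, adjusted p = 0.017). Under upper-quartile scaling neither was called (adjusted p = 0.068 for *Cenpa* and 0.069 for *Cenpe*). The other 5 did not pass. *Ndc80*, *Nuf2*, *Spc24* and *Spc25* form the complex that grips microtubules, and their log2 fold changes were 0.05, -0.18, -0.09 and 0.03. *Ndc80* had 86.8, 81.0, 72.6 and 94.9 CPM in EpCAM+ and 84.3, 79.1, 76.3 and 84.0 CPM in EpCAM- cells, and EpCAM+ held both the lowest and the highest value. *Spc25* had 138, 169, 142 and 173 CPM against 146, 158, 142 and 163 CPM. *Cenpf*, a large outer kinetochore protein, had 111, 120, 102 and 114 CPM against 112, 105, 102 and 118 CPM (0.03). In all 3 of these genes the fractions ran through each other, and leaving out 1 library turned the sign of each.

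Among the 9 spindle motors and microtubule binders, 2 were lower (22.2%), near the 20.8% of all tested genes. *Kif15*, a plus-end motor that helps hold spindle poles apart, had 46.4, 56.5, 48.5 and 63.1 CPM in EpCAM+ and 72.7, 70.7, 63.5 and 81.8 CPM in EpCAM- cells. The gap between EpCAM+ 4 and EpCAM- 3 was small, but no values crossed (-0.43 ± 0.11, adjusted p = 0.012). *Hmmr*, a spindle pole protein that binds *Tpx2*, was at 101 ± 13.8 against 128 ± 10.9 CPM (-0.34, adjusted p = 0.025), and was not called under upper-quartile scaling (adjusted p = 0.080). *Kif2c*, a microtubule depolymerase at centromeres, *Tpx2*, the activator of *Aurka*, *Kif22*, a chromosome arm motor, and *Kif11*, the motor that separates the poles, had log2 fold changes of -0.33, -0.22, -0.21 and -0.20. None of these 4 passed, and all 4 did with the replicate block, with adjusted p of 0.0048, 0.018, 0.021 and 0.018. *Kif18a*, a motor that damps chromosome movement, and *Nusap1*, a microtubule bundler, stood at -0.15 and -0.05 and did not pass in either fit. *Kif4*, a chromosome-bound motor, had 39.9, 37.2, 36.8 and 39.2 CPM against 35.8, 38.1, 33.9 and 44.9 CPM. Its log2 fold change of 0.0048 ± 0.10 was within the spread, and its sign turned to -0.02 with DESeq2.

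The midzone and cytokinesis genes differed least, with 1 of 7 lower. *Anln*, the actin-binding scaffold anillin of the cleavage furrow, had 29.4, 35.9, 28.6 and 34.0 CPM in EpCAM+ and 41.5, 39.7, 45.0 and 56.2 CPM in EpCAM- cells. All EpCAM+ libraries lay below all EpCAM- libraries (-0.51 ± 0.13, adjusted p = 0.0086). *Kif23* and *Racgap1* form centralspindlin, and *Ect2* is the exchange factor it recruits. *Kif23* had 91.3, 93.3, 87.8 and 113 CPM against 96.9, 85.2, 73.6 and 84.7 CPM. EpCAM+ 4 was the highest of the 8, the rest overlapped, and the fold change of 0.18 ± 0.10 did not pass (adjusted p = 0.19). *Prc1*, the bundler of midzone microtubules, had 128, 139, 117 and 134 CPM against 130, 111, 112 and 133 CPM. Its fold change of 0.09 ± 0.09 did not pass, and *Rccd1* overlaps its whole span on the opposite strand. *Racgap1* and *Ect2* stood at -0.03 and -0.04. *Kif20a* and *Kif20b*, midzone motors, stood at -0.27 and -0.16 without passing, and both passed with the replicate block (adjusted p = 0.027 and 0.033).

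Of the condensin and chromosome structure genes, 3 of 7 were lower. *Ncaph*, the kleisin subunit of condensin I, had 83.3, 82.8, 69.9 and 82.0 CPM in EpCAM+ and 91.9, 86.6, 99.2 and 107 CPM in EpCAM- cells. The fractions lay apart, with EpCAM+ 3 alone at the bottom (-0.27 ± 0.09, adjusted p = 0.029). *Ncapg* was at -0.25 (adjusted p = 0.047) and *Smc2* at -0.21 (adjusted p = 0.032). *Smc4* and *Ncapd2* had log2 fold changes of -0.15 and -0.13 that did not pass, and *Smc4* passed with the replicate block (adjusted p = 0.042). None of the 7 was called under upper-quartile scaling.

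*Top2a* and *Mki67*, the genes most often used to mark dividing cells, did not pass. *Top2a*, the topoisomerase that untangles sister chromatids, had 355, 342, 316 and 353 CPM in EpCAM+ and 378, 343, 348 and 396 CPM in EpCAM- cells. The fractions overlapped, and the log2 fold change was -0.10 ± 0.08 (adjusted p = 0.30). *Mki67*, the Ki-67 protein that coats mitotic chromosomes, had 139, 134, 132 and 126 CPM against 152, 118, 144 and 160 CPM. EpCAM- 2 was the lowest of the 8 libraries, although its *Aurka* and *Cdk1* were among the higher ones, and the log2 fold change was -0.12 ± 0.09 (adjusted p = 0.34).

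**Figure D4:**
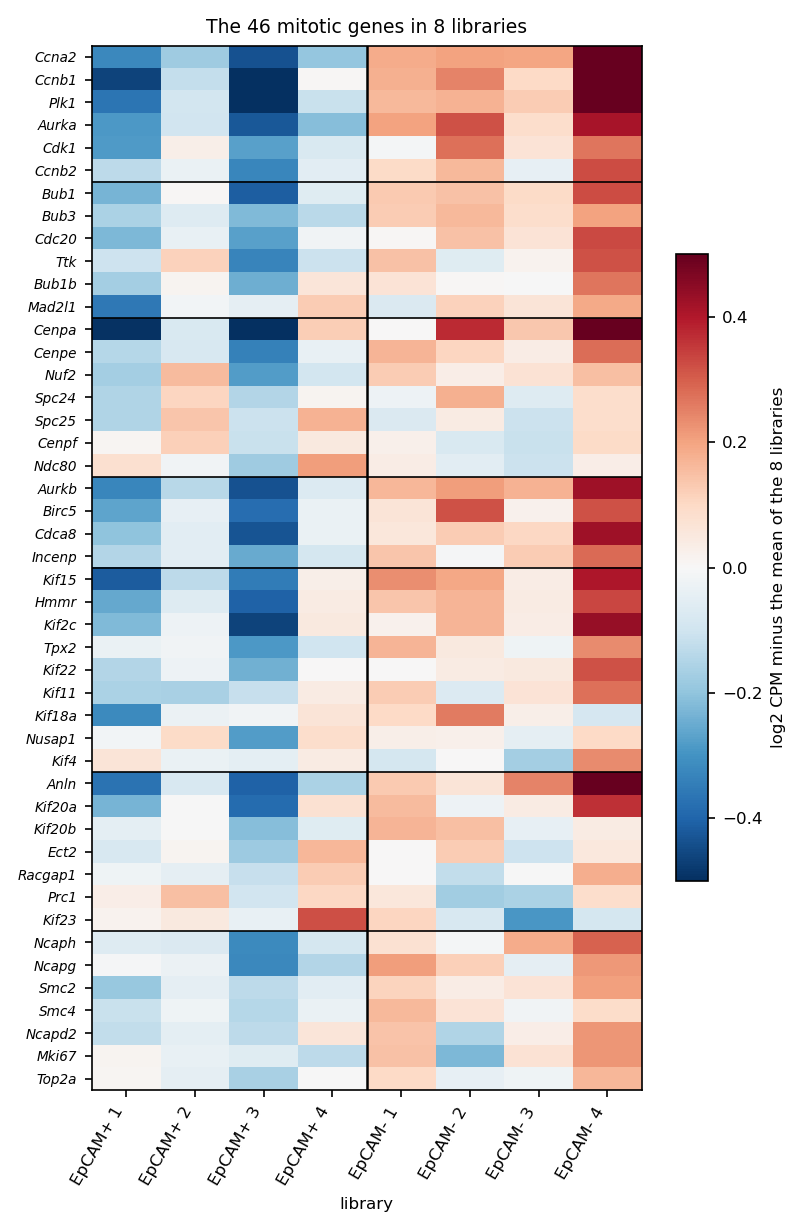
Log2 CPM of the 46 genes (rows, by role group and fold change) in the 8 libraries (columns), as the difference from the mean of the 8; blue is lower, red higher, and the colour scale ends at 0.5. EpCAM+ 3 is blue and EpCAM- 4 red across most rows, and the contrast is strongest at the top, in the entry kinases and cyclins.

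Ratios between genes of 1 library do not depend on its scaling, and 6 were computed after the values above had been seen, as a description. *Plk1* over *Prc1* was 0.792 to 0.927 in EpCAM+ and 1.16 to 1.58 in EpCAM- libraries. *Aurkb* over *Kif23* was 1.98 to 2.29 against 2.72 to 3.73. *Cenpa* over *Ndc80* was 1.70 to 2.42 against 2.46 to 3.74, *Anln* over *Ect2* 0.492 to 0.577 against 0.590 to 0.880, and *Ccnb1* over *Ccnb2* 0.728 to 0.951 against 0.970 to 1.11. In these 5 the ranges did not overlap, which the choice of a strongly lower gene over one with a smaller or opposite change largely fixed. *Aurka* over *Aurkb* was 0.512 to 0.584 against 0.534 to 0.612, with overlapping ranges.

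Summed over the 46 genes, the level was 6922 ± 571 CPM in EpCAM+ and 8222 ± 612 CPM in EpCAM- cells (mean ± SD, n = 4). The ranges were 6246 to 7432 and 7694 to 9104 CPM and did not overlap under TMM scaling. That gap depended on the scaling. The TMM factors were 1.055 for EpCAM+ 2 (7355 CPM) and 0.9723 for EpCAM- 3 (7694 CPM), so on library totals alone these libraries cross. Within libraries of the same replicate number, 44, 33, 43 and 40 of the 46 genes were lower in EpCAM+ in pairs 1 to 4, against 48.9%, 50.2%, 48.4% and 47.9% of all tested genes. In all 4 pairs 30 of the 46 genes were lower, and so were 30.6% of all tested genes. Pair 2 had the smallest median difference, -0.10 on the log2 scale, and pair 4 the greatest, -0.32.

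Levels per length, as CPM per kilobase of the gene length given in the table, spread far more between members than between fractions. In EpCAM- cells *Ccnb2* was highest with 205 CPM per kilobase, followed by *Cdc20* with 156, and *Kif18a* was lowest with 3.75. In EpCAM+ cells the same genes stood first, second and last, with 169, 128 and 3.38 CPM per kilobase.

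Other genes of mitosis, 138 in 9 lists, were lower for 36 (26.1%) and higher for 5 (3.62%), with a median log2 fold change of -0.11, against 20.8% lower and 21.8% higher over all tested genes. Under upper-quartile scaling 20 of the 138 were lower and 13 higher, against 15.4% and 26.9% of all genes, and without EpCAM+ 3 and EpCAM- 4 there were 13 lower and 3 higher, against 13.2% and 13.7%. Of the inner kinetochore, which builds on *Cenpa*, 10 of 26 were lower, led by *Pmf1* (-0.37, adjusted p = 0.0038), *Knl1* (-0.41, adjusted p = 0.0050) and *Cenpq* (-0.33, adjusted p = 0.0051), and *Cenpt*, the linker to the *Ndc80* complex, was higher (0.38, adjusted p = 0.012). Of the other checkpoint and outer kinetochore genes 5 of 10 were lower, among them *Spdl1* (-0.41), *Ska3* (-0.32) and *Zwilch* (-0.50). Of the other entry regulators 6 of 16 were lower, led by *Gtse1* (-0.57), the phosphatase *Cdc25a* (-0.43) and the Cdk subunit *Cks2* (-0.56), while *Wee1*, the kinase that restrains Cdk1, was higher (0.35, adjusted p = 0.023), as was *Ensa*, an inhibitor of the phosphatase PP2A (0.25, adjusted p = 0.026).

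The anaphase-promoting complex had 4 of 18 genes lower (22.2%), near the 20.8% of all tested genes. *Ube2c*, its E2 enzyme, was at -0.48, and *Anapc16* and *Anapc1* were at -0.20 and -0.30. Cohesin had 2 of 17 lower, its protector *Sgo1* (-0.40) and its release factor *Wapl* (-0.32), and condensin II 0 of 3. Among spindle and midbody genes 1 of 17 was lower, *Tacc3*, a partner of *Aurka* (-0.47, adjusted p = 0.0015), and *Numa1*, a spindle pole organizer, was higher (0.30, adjusted p = 0.022). Among centrosome genes *Cep76* (-0.63) and *Plk4* (-0.24) were lower and *Cntrob* higher (0.46), of 12. The regulators known to act on promoters of this class had 6 of 20 lower: *E2f4* (-0.86 ± 0.11, adjusted p = 4.4e-04), *Tfdp1* (-0.57), *Nfyc* (-0.36), *Mybl2* (-0.57), *Rbbp4* (-0.46) and *Rb1* (-0.59). The other 14 did not pass. As a list they did not lean lower, with a median log2 fold change of 0.009 and 9 negative against 11 positive signs. *Foxm1*, an activator of *Plk1* and the cyclin B genes, was at 0.06 and did not pass.

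**Figure D5:**
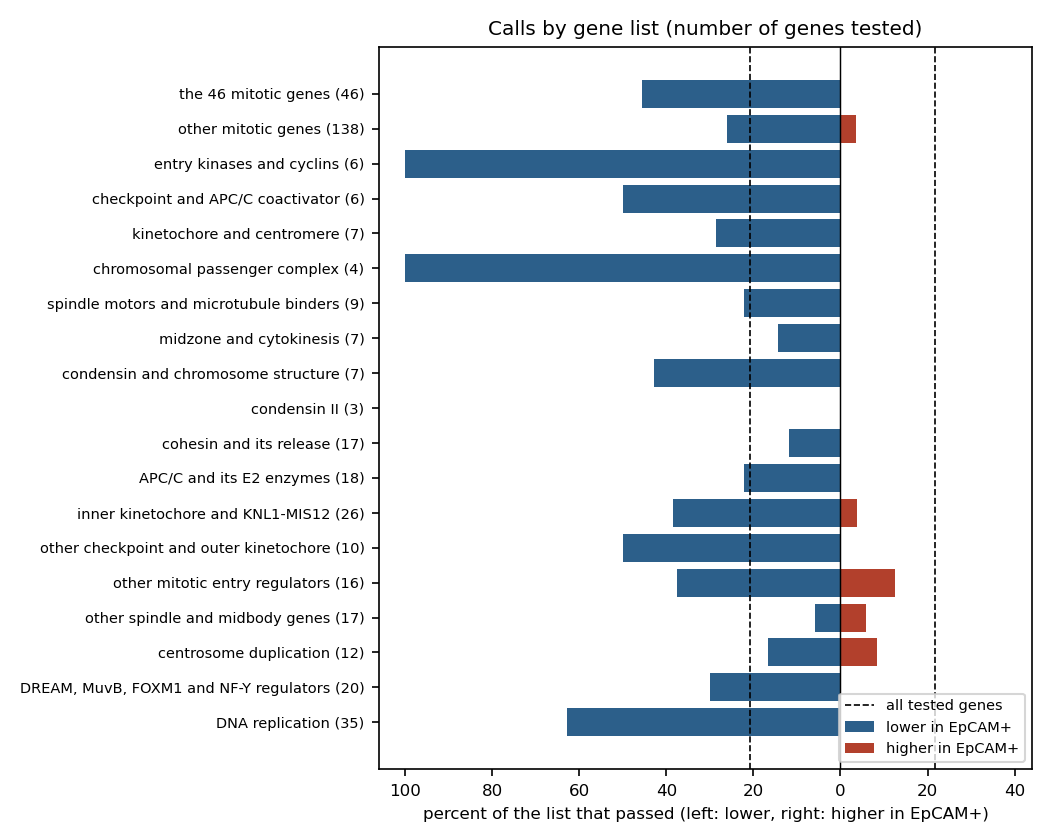
Percent of each gene list called lower (left, blue) or higher (right, red) in EpCAM+ cells, with the number of genes tested in parentheses; dashed lines mark all tested genes (20.8% lower, 21.8% higher). Entry kinases and cyclins and the chromosomal passenger complex reach 100% on the left, the 46 genes 45.7% and DNA replication 62.9%.

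DNA replication genes, which mark the S phase before mitosis, were lower for 22 of 35 (62.9%) and higher for 0, with a median log2 fold change of -0.32. The 3 with the smallest adjusted p were *Rrm2* (-0.71, adjusted p = 8.1e-04), *Rfc4* (-0.50, adjusted p = 8.8e-04) and *Cdc6* (-0.67, adjusted p = 9.0e-04). The sum of the 46 mitotic genes over the sum of the replication genes was 0.863 to 1.02 in EpCAM+ and 0.869 to 0.976 in EpCAM- libraries, with overlapping ranges. Under upper-quartile scaling 18 of the replication genes were still lower, and without EpCAM+ 3 and EpCAM- 4 there were 10.

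Genes of other cell types also differed between the fractions, though not every gene of a list did. Over all tested genes 20.8% were lower and 21.8% higher. Of 9 neutrophil and granule genes 4 were lower in EpCAM+ cells (*Elane*, *Mpo*, *Prtn3* and *Ctsg*), and the summed level of the 9 was 1097 to 1853 CPM in EpCAM+ and 11940 to 18560 CPM in EpCAM- libraries. The other genes of this list did not pass. Their log2 fold changes were -0.15 (*S100a8*), 0.17 (*S100a9*), -0.28 (*Ltf*), -0.19 (*Camp*) and -0.80 (*Ngp*). Of 8 erythroid genes 7 were lower, with sums of 107 to 292 against 2099 to 7017 CPM. Mast cell and basophil genes had 3 of 6 lower (sums 267 to 292 against 402 to 678 CPM) and monocyte genes 3 of 7 tested (85.2 to 417 against 224 to 849 CPM). Positive fold changes that did not pass were those of *Gata2* (0.28) in the first list and *Ccr2* (1.16), *Cd68* (0.27) and *C1qa* (0.37) in the second. Of the 12 LSK genes 9 were higher in EpCAM+ cells (3063 to 3345 against 1679 to 2475 CPM). Among them were *Kit* and *Ly6a*, which encode the sorted antigens c-Kit and Sca-1. Both had counts in all libraries but at unequal levels. *Kit* was at 285 ± 39.9 against 208 ± 38.2 CPM (log2 fold change 0.45, adjusted p = 0.028). *Ly6a* was at 201 ± 106 against 41.3 ± 29.4 CPM (2.28, adjusted p = 0.0066), and lowest in EpCAM- 4 with 15.7 CPM. Not every gene of the remaining lists had enough counts to test. Dendritic cell genes were higher for 5 of 8 tested (509 to 859 against 327 to 499 CPM) and epithelial genes for 5 of 5 tested (207 to 260 against 79.6 to 107 CPM). Plasma cell genes were higher for 3 of 5 tested (389 to 3978 against 171 to 259 CPM), with *Jchain* at 3525 CPM in EpCAM+ 1. T cell genes were higher for 2 of 2 tested (54.3 to 67.5 against 17.4 to 29.5 CPM). These were *Lck* and *Cd4*, the latter at 1.98 against 0.98 CPM. B cell genes were higher for 2 of 5 tested (76.3 to 125 against 49.6 to 84.1 CPM), with overlapping sums. Megakaryocyte genes were higher for 1 of 5 tested (20%), near the share of all tested genes, and their sums overlapped (129 to 367 against 83.5 to 286 CPM). The defining genes *Pax5* (B cells), *Cd3e* (T cells), *Gp1bb* (megakaryocytes) and *Krt19* (epithelia) had at most 3 counts over the 8 libraries. *Gata2* is in both the LSK and the mast cell list and *Flt3* in both the LSK and the dendritic cell list. The part of these lineage genes in the lower mitotic transcripts was not tested.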

How the data were processed

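Per the labels and the study's methods, RNA of LSK cells was amplified with SMART-Seq v4 and sequenced as paired ends. Per the submitters' processing notes, the authors used STAR 2.6.1d, featureCounts 1.5.0-p3 and DESeq2 1.20.0 with GRCm38.p6. The deposited table holds raw read counts per gene, which were used here, beside FPKM, fold changes and p-values by the authors, which were not. The strand setting and the treatment of reads shared between genes are not given in the sources used here. Of the 46 genes, 17 overlap an annotated gene on the opposite strand and 4 (*Ccnb1*, *Ccnb2*, *Kif22*, *Kif4*) have a pseudogene named for them, so their counts are uncertain to that extent. SMART amplification carries no molecular identifiers, so counts include PCR copies.

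Counts were filtered with filterByExpr, scaled by TMM and tested with edgeR 4.0.16 in R 4.3.3 (quasi-likelihood, two-sided, Benjamini-Hochberg over all tested genes, threshold 0.05), EpCAM+ against EpCAM- with no covariate. SE were derived from the F statistic. The labels speak of 4 mice per genotype and do not tie libraries to mice, so p-values measure the spread between these libraries. Same-numbered libraries deviated together from their fraction means (correlation across genes 0.205 to 0.356 in the 4 pairs, -0.216 to 0.0396 in the 12 others), so the numbers were taken to pair the samples and the replicate block was fitted as an alternative. Within fractions, the counts of the 12 pairs of libraries differed far beyond sampling noise (chi-square divided by its degrees of freedom 10.3 to 97.4), so each counted as a sample.

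Alternatives were DESeq2 1.42.0, other scalings and filters, each library left out and, chosen after seeing the data, EpCAM+ 3 and EpCAM- 4 left out together and the replicate block with upper-quartile scaling. The procedure was tested on simulated data. Figures used Python 3.11.15 and matplotlib 3.10.9. Every member is named; values by library are given for *Mki67*, *Top2a*, *Cdk1*, *Ccnb1*, *Plk1* and *Aurka*, for the smallest adjusted p and largest change of each role group and for members with a positive fold change, and of other mitotic lists up to 3 genes with the smallest adjusted p and any that passed against their list; all 6 regulators that passed and *Foxm1*, and the named marker genes, were added after their values were seen. The members and lists were chosen with earlier results of these data known.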

Additional observations from a re-analysis of the deposited data

Results flagged for a closer look

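In each fraction of 4 libraries, the gap between the most extreme library and its neighbour was set against the range of the fraction for the 46 genes, and in 5 of 92 cases it passed Dixon's critical value. Chance alone flags about 1 in 20 such groups. EpCAM- 4 stood apart at the top for *Ccna2* (363.6 CPM, the next library 286.2), *Plk1* (210.3, next 152.2), *Aurkb* (315.7, next 272.1) and *Kif22* (233.0, next 193.0). EpCAM+ 3 stood apart at the bottom for *Ncaph* (69.86 CPM, the next library 82.03).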

How the results depend on the processing

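The count of mitotic genes lower in EpCAM+ cells (21) is given with the percent of all tested genes lower under the same setting. It was 8 under upper-quartile scaling (15.4%), 9 with library totals (15.2%) and 5 without EpCAM+ 3 and EpCAM- 4 together (13.2%). When 1 library was left out it was 10 to 22 (16.5% to 21.2%). It was 24 with DESeq2 (17.8%), 21 with its size factors (21.3%) and 21 with a filter of 1 count (10.9%). A filter of 10 counts gave 19 (20.9%) and the replicate block 28 (24.7%). The block with upper-quartile scaling gave 19 (18.9%). There *Kif23* became the 1 gene called higher, against 30.9% of all tested genes. The block lost none of the 21 calls and added 7. Genes with fractions apart (19) numbered 7, 8 and 7 under upper-quartile scaling, library totals and the block with upper-quartile scaling. For all tested genes this share is given here under TMM alone, with 20.0% apart and lower in EpCAM+ cells. Other mitotic genes lower (36) numbered 20 and 21 under these 2 scalings, 21 to 39 with 1 library left out and 13 without both libraries. Other mitotic genes higher (5) numbered 13, 11, 3, 8 and 9 with upper quartile, totals, the filters of 1 and 10 counts and the replicate block, 1 to 6 with 1 library left out, 3 without both libraries and 20 with the block and upper-quartile scaling. Without both libraries, replication genes lower (22) numbered 10, and among all tested genes 1871 were higher and 1806 lower; this leaves 3 libraries per fraction. Causes of the other changes were not tested.

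Members near 0 changed sign. *Kif4* was at -0.0153 with DESeq2, -0.0038 with its size factors and -0.0099 with the filter of 1 count. Under upper-quartile scaling, library totals, without both libraries and with the block and upper-quartile scaling, *Nusap1* was at 0.0397, 0.0369, 0.0534 and 0.0332, *Racgap1* at 0.0548, 0.0511, 0.0585 and 0.0556, and *Ect2* at 0.0482, 0.0455, 0.0230 and 0.0453. With 1 library left out the ranges were -0.0040 to 0.0734 (*Cenpf*), -0.0182 to 0.112 (*Ndc80*), -0.0272 to 0.0782 (*Spc25*), -0.0554 to 0.0854 (*Kif4*), -0.0878 to 0.0295 (*Nusap1*), -0.0847 to 0.0209 (*Racgap1*) and -0.106 to 0.0131 (*Ect2*). In the 150 bases before the start alone, TTTGAA was found in 14, CANNTG in 13 and CACCTG in 1 of the 39 promoters, against 10.5%, 51.2% and 12.2% of all genes. No member had fewer than 428 counts in any library.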
